A study of Mus musculus with 6 samples.

Results

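Suprabasal epidermal cells were taken from the Gli1+ libraries of a single-cell RNA-seq series on the mouse Achilles tendon as the barcodes in which Krt1 and Krt10 together made up at least 1% of the UMIs. A UMI is 1 captured RNA molecule, and Krt1 and Krt10 encode the keratin pair of the layers above the basal layer of the epidermis. A barcode also needed at least 1000 UMIs, at least 200 genes, at most 5% of UMIs from mitochondrial genes and no UMI of Ptprc, the leukocyte surface phosphatase CD45. This gave 519 members among the 23964 barcodes that passed the same filters: 19 in the uninjured, 441 in the 7 days post-injury (dpi) and 59 in the 21 dpi library. The members were thus chosen by their measured Krt1, Krt10 and Ptprc, and the contrast with basal cells by Krt5 and Krt14 as well, so values from these cells are given as a description.

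The epidermis renews itself from a basal layer that is anchored to the basement membrane by hemidesmosomes and makes keratins 5 and 14. Cells that leave this layer withdraw from the cell cycle, switch to keratins 1 and 10, build more desmosomes in the spinous layer, and then make the lipids and envelope proteins of the barrier in the granular layer. At wounds, epidermal cells turn on keratins 6, 16 and 17 and proteins of antimicrobial defence.

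All libraries came from tamoxifen-treated Gli1-CreERT2; Ai9 mice, in which Cre driven from Gli1, a transcription factor and target of Hedgehog signalling, switches on a red fluorescent reporter that stays on in the cell and its progeny. The groups were uninjured mice, mice at 7 days and mice at 21 days after Achilles tenotomy, with 8 mice pooled per time point, and each pool was sorted by reporter fluorescence into a Gli1+ and a Gli1- library. Per the methods of the study, the tenotomy was done through an incision in the skin. There was thus 1 library for each condition and no biological replicate, so no test between conditions was possible; all intervals below are exact 95% intervals that cover counting error only, and differences between time points describe these libraries. The samples are labelled as tendon cells, but these barcodes carried epidermal markers.

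The members were found almost entirely on the Gli1+ side of the sort. They made up 0.59% of the filtered barcodes in the uninjured Gli1+ library (95% binomial interval, 0.356% to 0.92%, 19 of 3218), 4.39% at 7 dpi (3.99% to 4.81%, 441 of 10054) and 0.552% at 21 dpi (0.42% to 0.711%, 59 of 10692). The share at 7 dpi was above both others by more than counting error. Without the Ptprc filter, 7516, 10064 and 10695 barcodes passed in the uninjured, 7 dpi and 21 dpi libraries. The shares were then 0.279% (0.173% to 0.427%), 4.38% and 0.552%, so the uninjured share depended on this filter. The same rule, applied to the Gli1- libraries, which it was not written for, found 0 of 12076 barcodes in the uninjured library, which by the limit of 3 counts allows a share of up to 0.0248%. It found 6 of 10890 (0.0551%) at 7 dpi and 4 of 12013 (0.0333%) at 21 dpi. The sort and the piece of tissue taken can set these shares, and neither can be told apart from the time point.

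Basal epidermal cells of the same libraries served as the comparison: barcodes with Krt5 and Krt14 at 0.5% of UMIs or more and Krt1 and Krt10 under 1%. There were 60, 1675 and 579 of them in the uninjured, 7 dpi and 21 dpi libraries. Of the suprabasal and basal cells together, the suprabasal cells were 24.1% (15.1% to 35%) in the uninjured library, 20.8% (19.1% to 22.6%) at 7 dpi and in the 21 dpi library 9.25% (7.11% to 11.8%). The suprabasal fraction of these epidermal cells was thus lowest at 21 dpi, with intervals of the other 2 libraries that overlapped each other. The order of the uninjured and 7 dpi libraries turned with the cut at 0.5% (28% and 36.5%) or 2% (9.09% and 13.9%), with a mitochondrial limit of 10% (23% and 28.5%) and without barcodes of more than 3 times their library's median UMIs (15.2% and 20.9%).

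**Figure D1:**
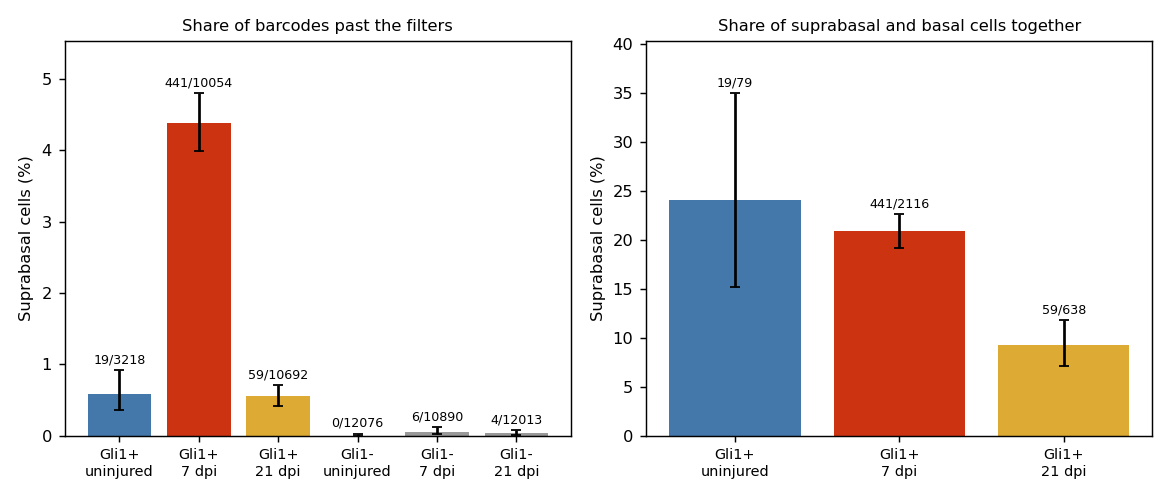
Percentage of filtered barcodes (left) and of suprabasal plus basal cells (right) that were suprabasal, by library, with exact 95% binomial intervals as bars. The Gli1+ 7 dpi library stands at 4.39% on the left, and the Gli1+ 21 dpi library is lowest of the 3 Gli1+ libraries on the right, at 9.25%.

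The cut at 1% did not fall at a gap in the 7 dpi library. In that library 449 barcodes lay between 0.5% and 1% Krt1 plus Krt10 and 110 between 1% and 1.5%. The corresponding numbers were 4 and 7 in the uninjured and 39 and 22 in the 21 dpi library. Just outside the 7 dpi cut the level of Krtdap was 1024 CPM (the UMIs of a gene per 1000000 UMIs, summed over the cells of a group), and just inside it was 2022. Krt14 was 10700 CPM just outside and 9375 just inside, but by cell its median went the other way, from 2260 to 3821 CPM. The barcodes just outside were also shallower and richer in collagen. Their median was 2216 UMIs, with Col1a1 at 6810 CPM, against 7398 UMIs and 4768 CPM just inside. From the members with 1% to 1.25% Krt1 plus Krt10 to those with 5% or more, Krtdap went from 1723 to 4173 CPM and Sbsn from 350 to 1596, while Krt14 went from 9552 to 2056 and Krt5 from 1709 to 245. At 7 dpi Krtdap and Sbsn were thus highest, and the basal keratins lowest, in the members with the most Krt1 and Krt10. The order was the same at 21 dpi, with Sbsn from 130 to 1693 CPM and Krt14 from 7528 to 384. In the uninjured library the summed levels did not have this order. From the 5 members with 1% to 1.25% to the 6 with 2% to 5%, Sbsn went from 1819 to 1126 CPM and Krt14 from 407 to 983. By cell, however, the median of Sbsn rose from 265 to 697 CPM, and that of Krt14 from 17.3 to 80.1. The 6 included the only uninjured member with Krt5 plus Krt14 at 0.5% of UMIs or more.

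**Figure D2:**
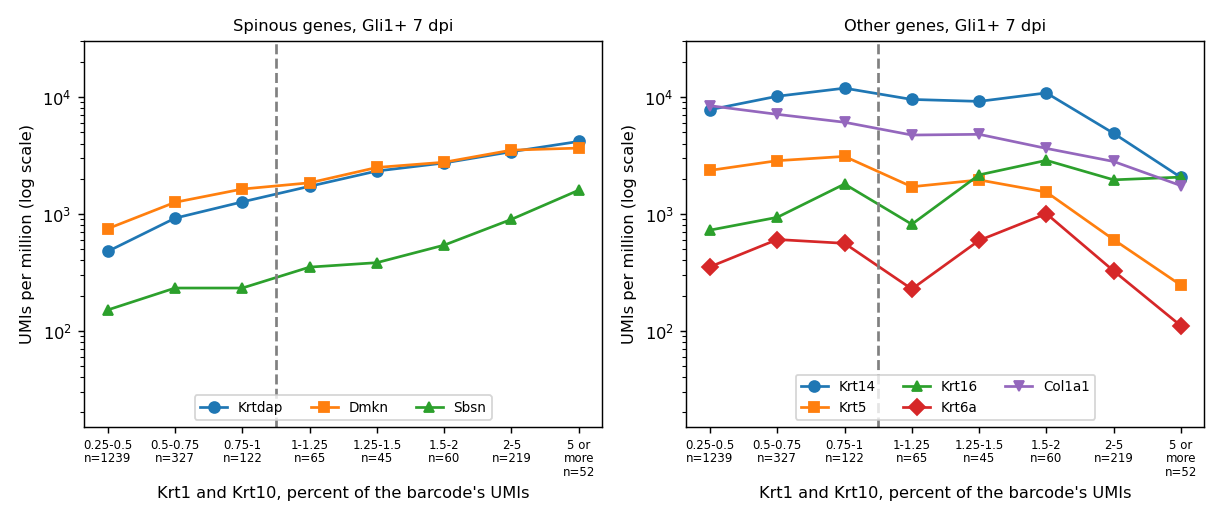
Levels (CPM, log axis) of the spinous genes Krtdap, Dmkn and Sbsn (left) and of Krt14, Krt5, Krt16, Krt6a and Col1a1 (right) in 7 dpi barcodes binned by the percentage of UMIs from Krt1 plus Krt10, with the 1% cut drawn as a line. Krtdap and Sbsn reach 4173 and 1596 CPM in the last bin, where Krt14 and Krt5 are at their lowest, 2056 and 245.

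The libraries differed in depth and purity, and these values stand beside every result below. The members held 563848, 4511510 and 975250 UMIs in the uninjured, 7 dpi and 21 dpi libraries, with medians of 25815, 10097 and 15823 UMIs per cell. In the uninjured library 12 of the 19 members had more than 3 times the median UMIs of their library, against 6 of 441 and 6 of 59 in the others. At 7 dpi 162 of the 441 members had collagens I and III (Col1a1, Col1a2 and Col3a1) at 0.5% of UMIs or more, against 1 of 19 and 7 of 59. Krt5 plus Krt14 reached 0.5% of UMIs in 1 of 19 uninjured, 168 of 441 7 dpi and 20 of 59 21 dpi members. The part of this difference in the changes between time points was not tested. Scrublet scores barcodes for holding more than 1 cell, and a preset number of the top-scoring barcodes was marked in each library, at 0.8% per 1000 barcodes. These included 1, 48 and 2 members, which were kept. After thinning each barcode to 2000 UMIs, which left out 1, 51 and 3 shallower members, a UMI of Krt14 was present in 89.7% of endothelial barcodes at 7 dpi, 19.2% at 21 dpi and 2.33% in the uninjured library, at median depths of 5150.5, 7590 and 5295 UMIs. Endothelial cells should lack this keratin, and their share was read as the background of free RNA. The thinned share among members was 90.3%, 69.6% and 44.4%, in the same order, so at 7 dpi the presence of a Krt14 UMI did not separate members from background. Both 7 dpi shares were high, so they cannot compare the level of Krt14 with the background, which was not tested. Over all barcodes of the libraries, before any filter, 27 to 75 sequences were shared between pairs of the 6 libraries, and 0 were shared between members. The libraries held 8236 to 16437 barcodes each, so with so few members the 0 cannot show whether barcodes were carried over. The libraries also differed by sex: Y-linked UMIs without Xist were found in 13 of 19 uninjured and 309 of 441 7 dpi members, while 53 of 59 members at 21 dpi had Xist only. All barcodes past the filters lay the same way at 7 dpi, with Y-linked UMIs only in 72% and Xist only in 0.00995%, and at 21 dpi with Xist only in 92.8%, although the labels state an equal sex distribution. The uninjured barcodes were mixed, with Xist only in 56.5% and Y-linked UMIs only in 23%. Xist was found in 4 of the 19 uninjured members, 2 of them with Y-linked UMIs as well, and in 0 of the 441 members at 7 dpi. Sex and time point therefore cannot be told apart in any comparison with the 21 dpi library. Most uninjured and 7 dpi members had Y-linked UMIs only, and the part of sex in the differences between them was not tested.

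The label held on the markers. Krtdap, a secreted protein of differentiating keratinocytes, was at 8195 CPM in the uninjured members, 3095 at 7 dpi and 4631 at 21 dpi, against 2074, 563 and 1067 in the basal cells. Dmkn, dermokine, was at 2416, 3130 and 1738 CPM, against 820, 1186 and 713 in the basal cells. Thinned to 2000 UMIs, 100%, 97.9% and 98.2% of members had a UMI of Krtdap (100%, 97.1% and 100% unthinned), against 0.872%, 33.3% and 1.92% of endothelial barcodes. Of the late envelope proteins, Lor, loricrin, was at 5.32, 3.1 and 4.1 CPM, and Flg, filaggrin, was at 0, 8.2 and 4.1 CPM. Both were near 0 in all 3 libraries, while all 45 listed envelope genes, Lor and Flg included, summed to 1220, 1263 and 959 CPM. Krt9, the keratin of footpad epidermis, was not found in any member, where 0 counts allow up to 5.32 CPM in the uninjured, 0.665 in the 7 dpi and 3.08 in the 21 dpi library. The 7 endothelial markers summed to 5.32, 15.5 and 3.08 CPM and the 11 immune markers to 42.6, 7.31 and 27.7 CPM.

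Genes beyond those of the rule had the layer pattern in each library. Of the 2421 genes with a mean of at least 50 CPM over suprabasal and basal cells in all 3 Gli1+ libraries, 46 were at least 2-fold higher in the suprabasal cells in all 3, and 46 were at least 2-fold lower (1.90% each). These include the rule genes Krt1 and Krt10 on the higher and Krt5 and Krt14 on the lower side. Within 1 library, 4.91% of 3098 genes were at least 2-fold higher and 8.94% lower in the suprabasal cells of the uninjured library, 4.08% and 3.66% of 3062 at 7 dpi, and 4.11% and 6.63% of 2895 at 21 dpi. Because the 2 sets were cut by keratins from the same counts, these shares describe the sets and carry no test. They are the background for the suprabasal over basal counts of each gene list below. With TMM factors, which scale on the bulk of the genes, the numbers of genes higher and lower went from 152 and 277 to 231 and 195 in the uninjured library, from 125 and 112 to 173 and 68 at 7 dpi, and from 119 and 192 to 150 and 145 at 21 dpi.

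Among spinous genes, 10 of the 12 measured of a list of 15 were at least 2-fold higher in suprabasal than in basal cells in each library, the rule genes Krt1 and Krt10 among the 10. Sbsn, suprabasin, another secreted protein of the upper epidermis, was at 1320, 809 and 541 CPM in the members against 266, 130 and 98.7 in the basal cells, which made log2 ratios of 2.31 (2.12 to 2.50), 2.64 (2.57 to 2.72) and 2.46 (2.30 to 2.61). Calm4, a calmodulin-like protein of skin, was at 6151, 2827 and 3635 CPM against 464, 382 and 356. Krt2, a keratin of the late spinous layer, was at 4943, 1530 and 937 CPM against 79.8, 107 and 4.37, and only 22% of the 21 dpi members had a UMI of it. Mt4, a metallothionein of stratified epithelia, was at 6032, 565 and 1523 CPM against 872, 43.4 and 116. All 4 genes were higher in the suprabasal cells of each library.

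Sbsn, Dmkn and Krtdap are neighbours on mouse chromosome 7. In RefSeq on build GRCm38.p6 all 3 are on the plus strand, with the start of Dmkn 12285 bases after that of Sbsn and the start of Krtdap a further 24149 bases on. The promoters are shown because these 3 genes, with Krt10, mark the members, and because the neighbours were all higher in suprabasal than basal cells in each library. Each sequence is the 250 bases before the start of the gene, 5′ to 3′ on the strand of the gene, and capitals mark TGANTCA, the AP-1 motif, TATAAA, the TATA box, and AACCNGTT, the motif of the Grainyhead-like factors, each searched on both strands. Sbsn lies at chr7:30751221-30751470 (plus strand), Dmkn at chr7:30763506-30763755 (plus strand, the first of 3 entries), Krtdap at chr7:30787655-30787904 (plus strand) and Krt10 at chr11:99389365-99389614 (minus strand).
Sbsn: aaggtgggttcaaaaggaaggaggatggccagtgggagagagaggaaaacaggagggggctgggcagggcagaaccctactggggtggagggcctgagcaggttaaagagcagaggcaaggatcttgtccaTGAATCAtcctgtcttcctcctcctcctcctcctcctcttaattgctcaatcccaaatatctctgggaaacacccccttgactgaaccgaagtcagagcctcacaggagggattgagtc
Dmkn: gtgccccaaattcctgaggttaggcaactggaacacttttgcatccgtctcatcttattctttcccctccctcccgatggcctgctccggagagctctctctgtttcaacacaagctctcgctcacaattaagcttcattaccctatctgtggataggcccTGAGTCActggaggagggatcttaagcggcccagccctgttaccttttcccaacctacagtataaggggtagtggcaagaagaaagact
Krtdap: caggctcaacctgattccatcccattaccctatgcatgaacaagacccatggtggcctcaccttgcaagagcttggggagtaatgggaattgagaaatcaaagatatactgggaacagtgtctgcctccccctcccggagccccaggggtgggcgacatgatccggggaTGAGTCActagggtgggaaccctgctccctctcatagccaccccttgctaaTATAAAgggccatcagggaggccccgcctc
Krt10: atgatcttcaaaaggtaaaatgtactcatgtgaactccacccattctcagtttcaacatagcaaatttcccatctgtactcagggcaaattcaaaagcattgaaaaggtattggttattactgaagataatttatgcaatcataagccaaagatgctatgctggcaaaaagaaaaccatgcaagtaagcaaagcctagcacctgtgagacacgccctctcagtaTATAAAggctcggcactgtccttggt
The AP-1 motif began 119 bases before the start of Sbsn, 89 before that of Dmkn and 81 before that of Krtdap, and it was found in 5 of the 14 looked-up genes of the members that had a promoter entry. It occurred in 6.75% of all 32851 promoters of this length. The TATA box lay 30 bases before Krtdap and 26 before Krt10, and occurred in 6 of the 14 and in 12.4% of all promoters. The Grainyhead-like motif was in 1 of the 14, S100a9, and in 1.79% of all. These are matches of letters, not sites shown to be bound.

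Barrier lipid genes were mostly on the suprabasal side. Of a list of 27, 7 of 8 measured in the uninjured library, 7 of 9 at 7 dpi and 4 of 6 at 21 dpi were at least 2-fold higher in suprabasal cells, and 0 were lower. Elovl4, which makes the very long fatty acids of skin ceramides, was at 381, 332 and 208 CPM against 16.9, 26.8 and 12.5 in the basal cells. Abca12, the transporter that loads lipids into lamellar granules, was at 225, 263 and 171 CPM against 21.5, 30 and 27.8. Only 5 to 7 of the 45 listed envelope genes were measured, since most, Lor and Flg among them, lay under 50 CPM. Of those, 2 of 6 in the uninjured library, 6 of 7 at 7 dpi and 5 of 5 at 21 dpi were at least 2-fold higher in suprabasal cells and 0 were lower.

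Of 16 desmosome and adherens genes, 5 of 14, 5 of 13 and 5 of 12 measured were at least 2-fold higher in the suprabasal cells of the uninjured, 7 dpi and 21 dpi libraries, with Dsg1a, Jup and Perp common to all 3. Dsg1a, a desmoglein of the upper layers, was at 614, 418 and 271 CPM against 101, 67.3 and 18.4, and Dsc1, the matching desmocollin, at 161, 74.3 and 65.6 CPM against 4.6, 5.82 and 3.99. Both were higher in the suprabasal cells in all 3 libraries.

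Of 26 transcription factors of differentiation, 5 of 22 measured were at least 2-fold higher and 3 lower in the suprabasal cells of the uninjured library (median log2 ratio, 0.05), 5 of 20 higher and 0 lower at 7 dpi (0.38), and 7 of 20 higher and 0 lower at 21 dpi (0.50). Grhl1, Ovol1, Zfp750 and Cebpa were at least 2-fold higher in suprabasal cells in each library. Ovol1, a zinc finger factor of cells leaving the basal layer, was at 523, 286 and 325 CPM against 146, 121 and 119. Zfp750, a factor needed for terminal differentiation, was at 170, 338 and 181 CPM against 42.2, 68.5 and 37.2. These 4 were picked out after their values were seen.

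Basal layer genes were on the other side. Of the 18 listed, 15 of 17 measured in the uninjured library, 8 of 14 at 7 dpi and 10 of 15 at 21 dpi were at least 2-fold lower in suprabasal cells, the rule genes Krt5 and Krt14 among them, and 0 were higher. Krt15, a keratin of basal cells, was at 58.5, 87.6 and 29.7 CPM in the members and 1853, 966 and 615 in the basal cells. Col17a1, a collagen of the hemidesmosome, was at 222, 180 and 53.3 CPM against 883, 646 and 504. Of the cell cycle genes, 7 of 10, 8 of 9 and 3 of 10 measured were at least 2-fold lower, so at 21 dpi most did not reach the limit. Over all genes 8.94%, 3.66% and 6.63% were lower. Cdkn1a, also on this list, lay the other way in each library. Mki67, the Ki-67 antigen of cycling cells, picked out after its values were seen, was at 5.32, 39.2 and 58.4 CPM in the members against 225, 106 and 118 in the basal cells, while Cdkn1a, the cell cycle inhibitor p21, was at 431, 332 and 318 CPM against 220, 117 and 158. At 2000 UMIs per cell, a UMI of Mki67 was present in 0 of 18 uninjured members, which allows up to 16.7%, and in 3.85% and 8.93% at 7 and 21 dpi, against 11.7%, 11.8% and 12.3% of basal cells. The share in endothelial barcodes, some of which may cycle, was 0.291%, 5.98% and 2.68%. Unthinned shares were 15.8%, 11.3% and 22% of members.

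**Figure D3:**
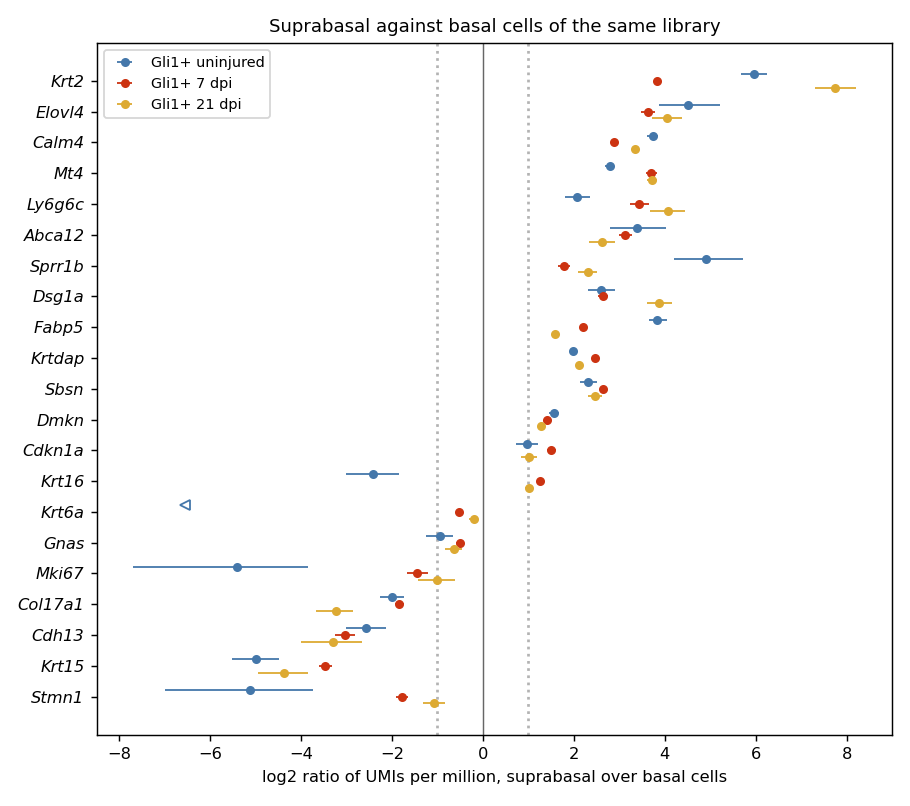
Log2 ratio of suprabasal over basal cells for named genes in the 3 Gli1+ libraries, with 95% intervals and with open triangles for bounds where 1 group had no UMI. Krt2 and Elovl4 lie to the right and Krt15 and Cdh13 to the left in every library, whereas Krt16 lies to the left in the uninjured library only.

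Between the time points, the members of the injured libraries had more RNA of wound keratins, of stefins and of Fabp5, and less of several differentiation genes. At 7 dpi, 217 of 2911 genes with a mean of at least 50 CPM were at least 2-fold higher than in the uninjured members (7.45%) and 143 were lower (4.91%). Without the barcodes of more than 3 times their library's median UMIs, called the deep cells below, 296 of 2982 were higher and 425 lower. Without genes at a higher level in the barcodes outside both epidermal sets, 1415 genes were left, with 43 higher and 94 lower. In both alternatives more genes were lower than higher, unlike over all members and genes. At 21 dpi, 119 of 2845 were higher (4.18%) and 109 lower (3.83%), with TMM factors 154 and 73, and without the deep cells 172 and 319. From 7 to 21 dpi, 48 of 2830 were higher (1.7%) and 142 lower (5.02%). The medians over all these genes were -0.08, -0.09 and -0.01 on the log2 scale.

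Of 26 wound-induced keratinocyte genes, 8 of the 12 measured were at least 2-fold higher at 7 dpi than in the uninjured members and 1 was lower, with a median log2 ratio of 3.47. Over all genes 7.45% were higher and 4.91% lower. At 21 dpi 6 of 11 were higher and 0 lower, with a median of 1.21, beside 4.18% and 3.83% over all genes. In the basal cells 7 of 12 and 7 of 11 were higher, where 6.78% and 4.44% of all genes were. Tnc, 1 of the 8 at 7 dpi, is also a connective tissue gene and is described with those below. Krt6a, Krt6b, Krt16, S100a8, S100a9 and Tnc lay under 50 CPM in the uninjured members, so only their 7 dpi level made them measured. For the genes near 0 uninjured, being counted as higher followed from the filter on the mean. The ratios of Krt6a, Krt6b and Tnc behind the median of 3.47 are bounds. Krt16, the type I partner of the keratin 6 proteins, was at 49.7 CPM (33 to 71.8) in the uninjured members, 2009 (1968 to 2051) at 7 dpi and 1749 (1667 to 1834) at 21 dpi, log2 ratios of 5.34 (4.81 to 5.93) and 5.14 (4.60 to 5.73) over uninjured, and 4.06 and 3.50 without the deep cells. In the basal cells it was at 264, 844 and 872 CPM. Krt16 was below the basal level in the uninjured library and above it after injury, but without the deep cells the uninjured log2 ratio to basal cells was 0.12 in place of -2.41. By cell, the lowest, median and highest level was 0, 0 and 741 CPM in the uninjured members, 0, 919 and 41649 at 7 dpi and 0, 712 and 8396 at 21 dpi, so the ranges overlapped. Thinned to 2000 UMIs, 11.1%, 74.9% and 48.2% of members had a UMI of Krt16 (26.3%, 93% and 74.6% unthinned), against 0%, 37.6% and 3.45% of endothelial barcodes.

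Krt6a and Krt6b had no UMI in the 19 uninjured members, which allows up to 5.32 CPM. Krt6a was at 423 CPM at 7 dpi and 941 at 21 dpi, at least 79.5-fold and at least 177-fold higher. Krt6b was at 325 and 536 CPM, at least 61-fold and at least 101-fold higher. A UMI of Krt6a was present in 26.2% and 30.4% of the thinned members at 7 and 21 dpi (57.8% and 50.8% unthinned), against 14.5% and 4.21% of endothelial barcodes. The basal cells already held Krt6a without injury, at 501 CPM, and held 608 and 1083 after it. These genes are near-identical copies, so how reads were split between them is uncertain. Krt17 was at 145, 403 and 336 CPM in the members and at 1049, 596 and 1156 in the basal cells. With the Krt1 plus Krt10 cut set at 2% the log2 ratios of Krt17 to the uninjured members turned to -0.25 at 7 dpi and -1.82 at 21 dpi.

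Within the injured libraries Krt6a and Krt16 were higher in the members that carried basal keratins. At 7 dpi Krt6a was at 880 CPM in the 168 members with Krt5 plus Krt14 at 0.5% of UMIs or more and at 106 in the other 273, and at 21 dpi at 1718 in 20 members and 497 in 39. Krt16 was at 2851 against 1425 CPM at 7 dpi and at 2523 against 1306 at 21 dpi. Krt2 had the opposite order, with 419 against 2301 CPM at 7 dpi and 14.1 against 1466 at 21 dpi. Clca3a2, a chloride channel accessory protein, differed little at 7 dpi (457 and 504 CPM), but at 21 dpi it was at 28.2 in the members with basal keratins and at 556 in the others. Krt1 plus Krt10 was also lower on the side with basal keratins, with medians of 1.85% and 2.99% at 7 dpi, and its part in these orders was not tested.

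The alarm proteins S100a8 and S100a9, subunits of calprotectin, were at 5.32 and 8.87 CPM in the uninjured members, 231 and 393 at 7 dpi and 987 and 1072 at 21 dpi. Only 3 UMIs of S100a8 stood behind the uninjured value, and its log2 ratio at 21 dpi was 7.54 (5.98 to 9.82). A single cell held 47.7% of the S100a8 and 49.1% of the S100a9 UMIs at 21 dpi. Without that cell S100a8 was at 528 CPM and S100a9 at 558.

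**Figure D4:**
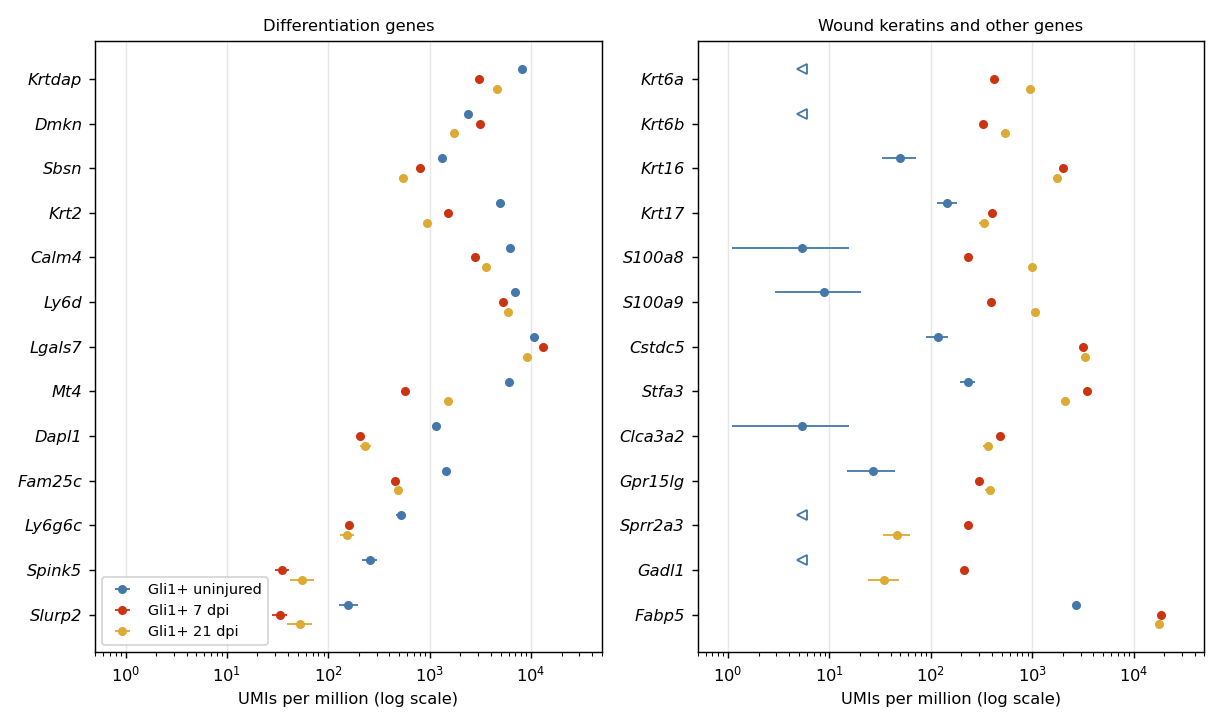
Levels (CPM, log axis) of differentiation genes (left) and of wound keratins and other genes (right) in the members of the 3 Gli1+ libraries, with exact 95% Poisson intervals as bars and open triangles at the 3-count limit for genes with no UMI. Mt4 and Krt2 are highest in the uninjured members, and Krt16, Krt6a, Fabp5 and the stefins are lowest there.

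Of 29 epidermal proteases and inhibitors, 4 of 18 measured were at least 2-fold higher at 7 dpi than uninjured, with the stefins Stfa1 and Stfa3 among them, and 2 were lower, beside 7.45% and 4.91% of all genes. At 21 dpi 5 of 18 were higher and 2 lower, beside 4.18% and 3.83%. Stefins are cytosolic inhibitors of cysteine proteases. Cstdc5, a related gene outside the list, is given with them. Cstdc5 was at 117, 3163 and 3287 CPM, and Stfa3 at 232, 3465 and 2092, log2 ratios at 7 dpi of 4.76 (4.41 to 5.13) and 3.90 (3.65 to 4.16). Without the deep cells these were 8.62 and 5.57, against 7 uninjured members with 123234 UMIs in all. The uninjured level of Cstdc5 then rested on very few UMIs, so the size of its ratio is uncertain. Stfa1, picked out after its values were seen, was at 101, 451 and 469 CPM. All 3 were also higher after injury outside the members. In the basal cells Cstdc5 was at 38.4, 1963 and 1866 CPM, Stfa3 at 103.6, 1746 and 970 and Stfa1 at 5.37, 230 and 196. In the other barcodes Cstdc5 was at 0, 178 and 19.9 CPM, Stfa3 at 0.107, 187 and 12.8 and Stfa1 at 0.107, 24.8 and 2.12. The stefin genes are close copies of each other, and reads may have been split between them. Spink5, an inhibitor of the kallikrein proteases that release cornified cells, was lower after injury, at 255, 35.2 and 55.4 CPM, log2 ratios of -2.86 and -2.21, and of -1.33 and -1.13 without the deep cells.

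Fabp5, the epidermal fatty acid-binding protein, was at 2685 CPM (2552 to 2824) in the uninjured members, 18436 (18310 to 18561) at 7 dpi and 17934 (17669 to 18202) at 21 dpi, log2 ratios of 2.78 (2.71 to 2.85) and 2.74 (2.66 to 2.82). By cell, the lowest, median and highest level of Fabp5 was 0, 1057 and 10130 CPM, then 456, 11126 and 96352 at 7 dpi and 610, 13428 and 84423 at 21 dpi. Both injured medians lay above the highest uninjured cell. It was the only barrier lipid gene of 12 measured at 7 dpi to reach 2-fold. In the uninjured library Fabp5 was at 3354 CPM in the 12 deep members and 292 in the other 7, so the size of the ratio depended on which members were used: without the deep cells it was 5.98 at 7 dpi and 5.78 at 21 dpi. In the basal cells Fabp5 was at 188, 4033 and 6012 CPM, and in all other barcodes at 107, 2033 and 306.

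Of 15 spinous genes, 3 of 12 measured were at least 2-fold lower at 7 dpi than uninjured and 1, the rule gene Krt1, was higher, with a median log2 ratio of -0.29, and at 21 dpi 2 of 13, Krt2 and Sbsn, were lower. Over all genes 4.91% were lower and 7.45% higher at 7 dpi, and 3.83% were lower at 21 dpi. Of the 3 at 7 dpi, Krt2 and Krtdap stayed past 2-fold without the deep cells and Calm4, at -0.71, did not. Mt4 was at 6032 CPM (5831 to 6238) in the uninjured members, 565 (543 to 587) at 7 dpi and 1523 (1446 to 1602) at 21 dpi, log2 ratios of -3.42 (-3.49 to -3.34) and -1.99 (-2.07 to -1.90), and without the deep cells these were -3.16 and -1.58. By cell, the median level of Mt4 was 5434 CPM in the uninjured members (690 to 10841), 269 at 7 dpi (0 to 5379) and 980 at 21 dpi (0 to 9412), so each uninjured cell held Mt4 and the ranges overlapped. Krt2 was lower by log2 ratios of -1.69 (-1.76 to -1.63) and -2.40 (-2.51 to -2.29), and without the deep cells by -1.56 and -2.0. Krtdap stood at -1.40 (-1.45 to -1.36) at 7 dpi and -0.82 (-0.88 to -0.76) at 21 dpi. For these 3 genes the direction held with and without the deep cells.

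Sbsn, in contrast, had log2 ratios of -0.70 (-0.82 to -0.59) and -1.29 (-1.45 to -1.12) over all members and of 0.63 and 0.28 without the deep cells. Within the uninjured library it was at 1539 CPM in the 12 deep members and 536 in the other 7. Dsc1 and Slurp2, a secreted Ly6-type protein, did the same. Dsc1 was at 204 CPM in the deep members against 8.11, a single UMI, in the others, and its log2 ratio at 7 dpi went from -1.12 to 3.16. Slurp2 was at 200 against 8.11 CPM, also 1 UMI, and its log2 ratio at 7 dpi went from -2.25 to 2.09. For Sbsn, Dsc1 and Slurp2 the uninjured level thus rested on 12 cells, and no direction can be given.

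Fam25c was at 1445, 452 and 492 CPM, Dapl1 at 1142, 204 and 233 and Ly6g6c at 525, 161 and 154. Without the deep cells, the log2 ratios at 7 dpi were -1.30 for Fam25c, -1.17 for Dapl1 and -0.29 for Ly6g6c. At 21 dpi they were -0.99, -0.73 and -0.09, short of 2-fold for all 3 genes. Lgals7, galectin-7, which is made throughout stratified epithelia, was at 10778, 13001 and 9173 CPM, log2 ratios of 0.27 at 7 dpi and -0.23 at 21 dpi. Ly6d was likewise at 6919, 5238 and 5947 CPM. Of the 14 measured desmosome and adherens genes, Dsc1 at 7 dpi and Dsc1 and Dsg1a at 21 dpi were at least 2-fold lower than uninjured. Over all genes 4.91% were lower at 7 dpi and 3.83% at 21 dpi. None of the Dsc1 and Dsg1a calls held without the deep cells, where Dsg1a was at -0.67 at 21 dpi and Dsc1 turned as given above.

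Of the 22 measured factors of differentiation, 2 were at least 2-fold higher at 7 dpi, Ehf and Cebpb, and 2 lower, Hes1 and Tfap2c, shares near the 7.45% and 4.91% over all genes. Ehf, an epithelial ETS factor, was at 56.8, 240 and 277 CPM, log2 ratios of 2.08 (1.58 to 2.64) and 2.29 (1.75 to 2.86). Cebpb was at 239, 596 and 476 CPM, and its log2 ratio at 7 dpi of 1.32 (1.07 to 1.58) was 0.66 without the deep cells. Among Notch genes, Notch1, the receptor of the spinous switch, was at 117, 47.7 and 82 CPM, and Hes1, a target of Notch, at 147, 28.8 and 91.3, so both were lowest at 7 dpi. Their log2 ratios at 7 dpi were -1.30 (-1.70 to -0.88) and -2.35 (-2.76 to -1.94), the only 2 of the 3 measured Notch genes past 2-fold. Hes1 had the same order in the basal cells, at 210, 37.4 and 92.1 CPM, and in the other barcodes, at 254, 42.4 and 136 CPM. Of 5 measured EGF receptor ligands and receptors, Areg, amphiregulin, alone was past 2-fold at 7 dpi, at 1.77, 154 and 61.5 CPM, with 1 UMI behind the uninjured value, a ratio of 87.1 with a log2 interval of 3.96 to 11.75.

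Several epidermal genes differed between the 7 and 21 dpi members. Sprr2a3, a small proline-rich envelope protein, was at 0, 231 and 46.1 CPM, and its reads may be shared with near-identical copies. Gadl1, a decarboxylase, was at 0, 213 and 34.9 CPM. Both were lower at 21 than at 7 dpi, by 5.01-fold and 6.12-fold, with log2 ratios of -2.32 (-2.79 to -1.89) and -2.61 (-3.15 to -2.12). Calml3, a calmodulin-like protein of epithelia, was at 133, 29.7 and 274 CPM, and Defb6, a beta-defensin, at 1.77, 28.6 and 200, log2 ratios from 7 to 21 dpi of 3.20 (2.90 to 3.51) and 2.81 (2.48 to 3.14). Barx2, a homeobox factor, was at 74.5, 50.3 and 158 CPM. Over all members Sprr2a3 and Gadl1 were highest at 7 dpi, and Calml3, Defb6 and Barx2 at 21 dpi. With the 2% cut, however, the log2 ratio of Calml3 at 21 dpi over uninjured was -0.19 in place of 1.04. Defb6 was carried by few cells, with a UMI in 15 of 59 members at 21 dpi and 30.3% of its UMIs in 1 cell.

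Most measured connective tissue genes were higher in the 7 dpi than in the uninjured members. Of 14 fibroblast and tendon markers, 7 of 10 measured were at least 2-fold higher than uninjured and 0 lower. Over all genes 7.45% were higher and 4.91% lower. By the mean of per-cell levels, however, the log2 ratio of Col1a1 was -0.38. The highest uninjured cell, at 79273 CPM, enters that mean. By cell, the median of Col1a1 was 25.5 CPM in the uninjured members and 1792 at 7 dpi. The summed level of the 14 markers was 1598, 11148 and 2820 CPM in the members, 1241, 14100 and 7259 in the basal cells and 30834, 56922 and 63065 in the barcodes outside both epidermal sets. Postn and Tnc, which the lists hold among basal layer and wound genes, were likewise highest in the other barcodes. Postn, periostin, was at 26.6, 817 and 98.4 CPM in the members and at 208, 3342 and 1579 in the other barcodes. Tnc, tenascin C, was at 0, 406 and 47.2 CPM in the members and 129, 1942 and 789 in those barcodes. A higher level outside the epidermal sets than in the members held for 149 of the 217 genes that were higher at 7 dpi than uninjured (68.7%), against 40.9% of the 2911 genes measured, and for 107 of the 142 that were lower at 21 than at 7 dpi (75.4%), against 41.8% of 2830. For the 119 genes higher at 21 dpi than uninjured the share was 36.1%, against 34.3% of 2845. In the uninjured library it was 23.8% of the 143 genes lower at 7 dpi and 24.8% of the 109 lower at 21 dpi, against 38.5% and 36.3% of the genes measured. After thinning, Col1a1 had a UMI in 94.9% of 7 dpi members and 98.3% of endothelial barcodes, at 21 dpi in 55.4% and 63.6%, and in the uninjured library in 16.7% and 11.6%. The shares in members were not above the background of cells that should lack it at 7 and 21 dpi, and unthinned they were 63.2%, 100% and 96.6% in the 3 libraries. At 7 dpi both thinned shares were high, so they cannot compare the levels of Col1a1.

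**Figure D5:**
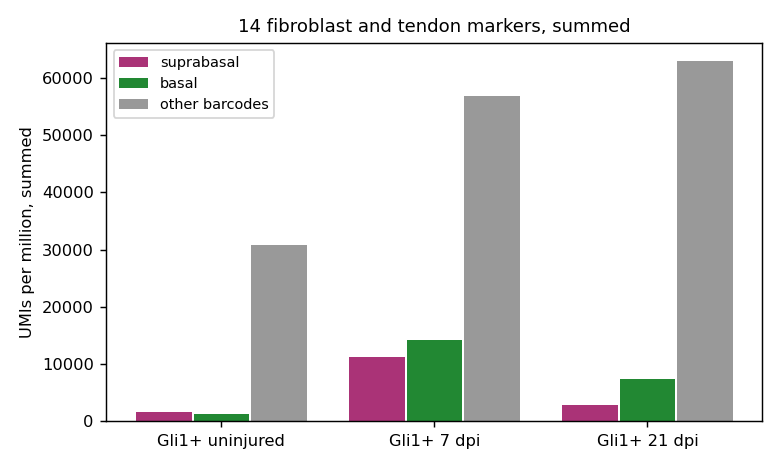
Summed level (CPM) of the 14 fibroblast and tendon markers in suprabasal members, basal cells and other barcodes of the 3 Gli1+ libraries, 1 bar per set. The members are highest at 7 dpi, at 11148, and lie below the other barcodes in each library.

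Gli1, whose promoter drove the label, had 0, 3 and 1 UMIs in the members of the 3 libraries, at 0, 0.665 and 1.03 CPM. Gnas, the stimulatory G protein subunit, was at 215, 387 and 266 CPM in the members, 414, 552 and 415 in the basal cells and 1395, 1544 and 1520 in the other barcodes, so it was lower in the members than in both other sets of each library. The part of free RNA in its level was not tested. Of 19 Gs and PKA genes, 1 of 4 measured (Pde4b) was at least 2-fold higher at 7 dpi, where 7.45% of all genes were, and 0 of 4 at 21 dpi, where 4.18% were.

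The 6 and 4 members of the Gli1- libraries had the same markers. Krtdap was at 3097 and 4997 CPM in them at 7 and 21 dpi, Fabp5 at 22784 and 22758, Krt16 at 2000 and 1874 and Cstdc5 at 2322 and 4182. With so few cells these values carry wide error between cells. Sbsn was at 1086 and 81.5 CPM, the latter with 3 UMIs behind it.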

How the data were processed

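The authors deposited filtered matrices of raw UMI counts for 6 droplet libraries (3' chemistry), with no normalization. The submitters' processing notes name Cell Ranger 3.1.0 with STAR and mm10, whereas the file headers name cellranger 9.0.0, and which made the counts was not resolved. Barcodes were filtered as stated, and UMIs were summed over the cells of each set and divided by the total of the set (CPM). Doublets were the top-scoring barcodes by Scrublet in scanpy 1.11.5, in a number preset at 0.8% per 1000 barcodes, and were kept. Genes with a mean of at least 50 CPM over both sets were measured, and a difference of 2-fold was the limit. A gene near 0 in 1 set was thus measured only through a high level in the other. With 1 library for each condition there was no test. Intervals are exact Poisson or Clopper-Pearson intervals at 95%. A gene with 0 counts was set to 3 counts, and the fold is then a bound. As an alternative scaling, edgeR 4.0.16 (R 4.3.3) gave TMM factors. The ratio code was tested on simulated data. Members and the 26 gene lists were chosen with earlier results of these data known. Named genes were the 10 with the highest and lowest ratios per comparison at a mean of at least 100 CPM (without Xist, Y-linked, mitochondrial, ribosomal, Gm and Rik genes), 4 by level and 4 by range from each list, and the rule genes, markers, Gli1 and Gnas. Of the genes named in this way, 1 is not reported here. Other genes are marked as picked out later, except the layer markers Lor, Flg and Krt9. Python 3.11.15 was used with numpy 2.4.6, scipy 1.17.1 and pandas 2.3.3.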

Additional observations from a re-analysis of the deposited data

Results flagged for a closer look

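For 6 genes, suprabasal over basal ratios pointed in opposite directions in different Gli1+ libraries, and the difference between libraries was not tested. The log2 ratio of Krt16 was -2.41 in the uninjured library, 1.25 at 7 dpi and 1.0 at 21 dpi. Defb6 was at -9.33 in the uninjured library, where 1 UMI lay in the members, and at 1.26 at 21 dpi. Cst6, a cystatin, was at -2.83 in the uninjured library and 1.96 at 7 dpi. The collagens had the reverse order, with Col1a1 at 2.53 uninjured and -1.23 at 21 dpi, Col1a2 at 1.25 and -1.72, and Col3a1 at 2.56 and -1.34. With the 2% cut the uninjured ratios of Col1a1 and Col1a2 turned to -1.46 and -1.98, and without Scrublet-marked barcodes their 21 dpi ratios turned to 0.65 and 0.38. A single uninjured member had collagens at 0.5% of UMIs or more, with a share of 9.66%.

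Suprabasal barcodes were also found outside the sorted Gli1+ population, as 0.0551% of the Gli1- barcodes at 7 dpi and 0.0333% at 21 dpi, from 6 and 4 barcodes. Their 95% intervals were 0.0202% to 0.12% and 0.00907% to 0.0852%, and the 0 barcodes in the uninjured Gli1- library allow up to 0.0248% by the limit of 3 counts. The difference between these libraries was not tested.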

How the results depend on the processing

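No paired analysis was possible because each condition had 1 library, and for the same reason no replicate could be left out. Of 162 alternative counts and shares, 105 stayed within the limits of the main value and 57 moved, and of 2759 alternative gene ratios 168 moved and 26 reversed. Of 138 alternative shares of cells with a UMI, 72 moved. The alternatives without deep cells and without genes higher in other barcodes were chosen after seeing the data, and the latter removes genes by their level in the members, so its counts are not independent of the change. Without genes higher in other barcodes, 1415 genes were left for 7 dpi over uninjured, 1559 for 21 dpi over uninjured and 1494 for 21 over 7 dpi. The cause of each move was not tested. The uninjured members limit the depth: 3 counts there were 5.32 CPM, against 0.665 at 7 dpi and 3.08 at 21 dpi.

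With the cut at 0.5%, the share of barcodes was 8.85% at 7 dpi and 0.917% at 21 dpi, and of epidermal cells 36.5% and 15.1%. With a cut at 2% these were 0.186%, 2.70% and 0.224% of barcodes in the uninjured, 7 dpi and 21 dpi libraries, and 9.09%, 13.9% and 3.98% of epidermal cells. The uninjured share of barcodes was 0.279% with no Ptprc filter and 0.225% without deep barcodes. A mitochondrial limit of 10% gave 6.21% and 28.5% at 7 dpi.

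For 7 dpi over uninjured, genes higher and lower were 520 and 341 at a mean of 20 CPM, 110 and 64 at 100 CPM, 2805 and 4195 with no filter, and 43 and 94 without genes higher in other barcodes, and 425 were lower without deep cells. For 21 dpi over uninjured they were 318 and 327, 55 and 43, 2245 and 2227, and 47 and 59 in the same order, 191 and 203 with the 2% cut, with 319 lower without deep cells and 175 lower by per-cell means. For 21 over 7 dpi they were 118 and 390, 22 and 70, 1685 and 2454, and 26 and 24, with 73 higher under the 2% cut and 89 lower without members with collagens. For suprabasal over basal cells at 100 CPM they were 68 and 111 uninjured, 64 and 43 at 7 dpi and 69 and 86 at 21 dpi. With TMM factors 231 were higher uninjured and 68 lower at 7 dpi. The 2% cut gave 433 lower uninjured, 190 lower at 7 dpi and 199 higher at 21 dpi, and 252 were higher uninjured without deep cells.

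Log2 ratios that reversed at 7 dpi over uninjured were Col1a1 (-0.38, per-cell means), Defb6 (-1.50) and Krt79 (-0.25) with the 0.5% cut, Krt17 (-0.25) and Cdh13 (0.61) with the 2% cut, and Slurp2 (2.09), Sprr1b (0.095), Calml3 (0.90) and Dsc1 (3.16) without deep cells. At 21 dpi over uninjured they were Col1a2 (-0.87) and Col1a1 (-1.52) by per-cell means, Krt17 (-1.82), Calml3 (-0.19) and Krt5 (-0.25) with the 2% cut, and Sbsn (0.28), Slurp2 (2.97) and Dsc1 (3.18) without deep cells. Krt79 at 21 over 7 dpi was at -0.93 with the 2% cut. For suprabasal over basal uninjured they were Areg (1.27), Col1a2 (-1.98) and Col1a1 (-1.46) with the 2% cut, and Krt16 (0.12), Cstdc5 (-2.98) and Stfa3 (-1.15) without deep cells. At 21 dpi they were Col1a2 (0.38) and Col1a1 (0.65) without Scrublet-marked barcodes.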
